A study of Mus musculus with 6 samples.

Results

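Glucose uptake and glycolysis were described through 10 genes in the brains of mouse embryos with a knockout of E4f1, which encodes a zinc finger transcription factor. The genes were the transporter Slc2a1, the hexokinases Hk1 and Hk2, the isomerase Gpi1, the phosphofructokinase subunits Pfkl, Pfkm and Pfkp, the aldolase Aldoa, the phosphoglycerate kinase Pgk1 and the pyruvate kinase Pkm. They were chosen by symbol, all 10 were found among the 24848 genes of the tables, and all 10 were among the 15848 genes expressed highly enough to be tested. RNA was sequenced from dissected, frozen brains at E14.5 (embryonic age in days), from 3 E4f1 knockouts (KO) and 3 wild types (WT), and each library carries a number of its own in the labels. The labels give no strain, litter or sex, and do not say how the allele was deleted, in which cells, or whether controls carry a Cre or a floxed allele.

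Glycolysis splits glucose into pyruvate in the cytosol. A transporter of the GLUT family lets glucose in, hexokinase traps it as glucose 6-phosphate, phosphofructokinase commits it to breakdown, and pyruvate kinase releases pyruvate, which mitochondria oxidise through the pyruvate dehydrogenase complex. In brain, SLC2A1 (GLUT1) is the transporter of the blood-brain barrier and is also found in glia, SLC2A3 (GLUT3) serves neurons, and HK1 is the main hexokinase.

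E4f1 itself was at 7.12, 7.01 and 6.91 CPM in the KO brains, against 20.7, 21.5 and 21.5 CPM in the WT brains. CPM are expected counts scaled to a common library size by TMM, which adjusts for differences in make-up. Its log2 fold change was -1.60 ± 0.08 (SE, n = 3 per group, edgeR adjusted p = 0.00142), and every KO library was below every WT library. Expected counts summed to between 50186590 and 69068011 per KO library and between 42113465 and 74064707 per WT library. Over these totals the 10 genes held between 446 and 64164 counts each.

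None of the 10 genes passed an adjusted p of 0.05 in edgeR's quasi-likelihood test, where 1% of all tested genes did, 0.511% higher and 0.492% lower. In the values per brain, Slc2a1 and Hk2 were higher in every KO brain than in any WT brain, and Pfkl was lower in every KO brain. The groups overlapped in the other 7 genes. Over all tested genes, the groups did not overlap in 27.6%, every KO brain being above every WT brain in 14.6% and below in 13%, so 3 of 10 is close to the background. The fold changes of the 10 were positive in 5 and negative in 5, against 49.9% positive over all genes. Without adjustment, p was below 0.05 for 3 of the 10, 2 of them higher and 1 lower, against 19.6% of all genes, 10.3% higher and 9.31% lower. DESeq2, which called 8.89% of its genes, 4.82% higher and 4.06% lower, called Slc2a1 and Hk2 higher and no other of the 10.

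**Figure D1:**
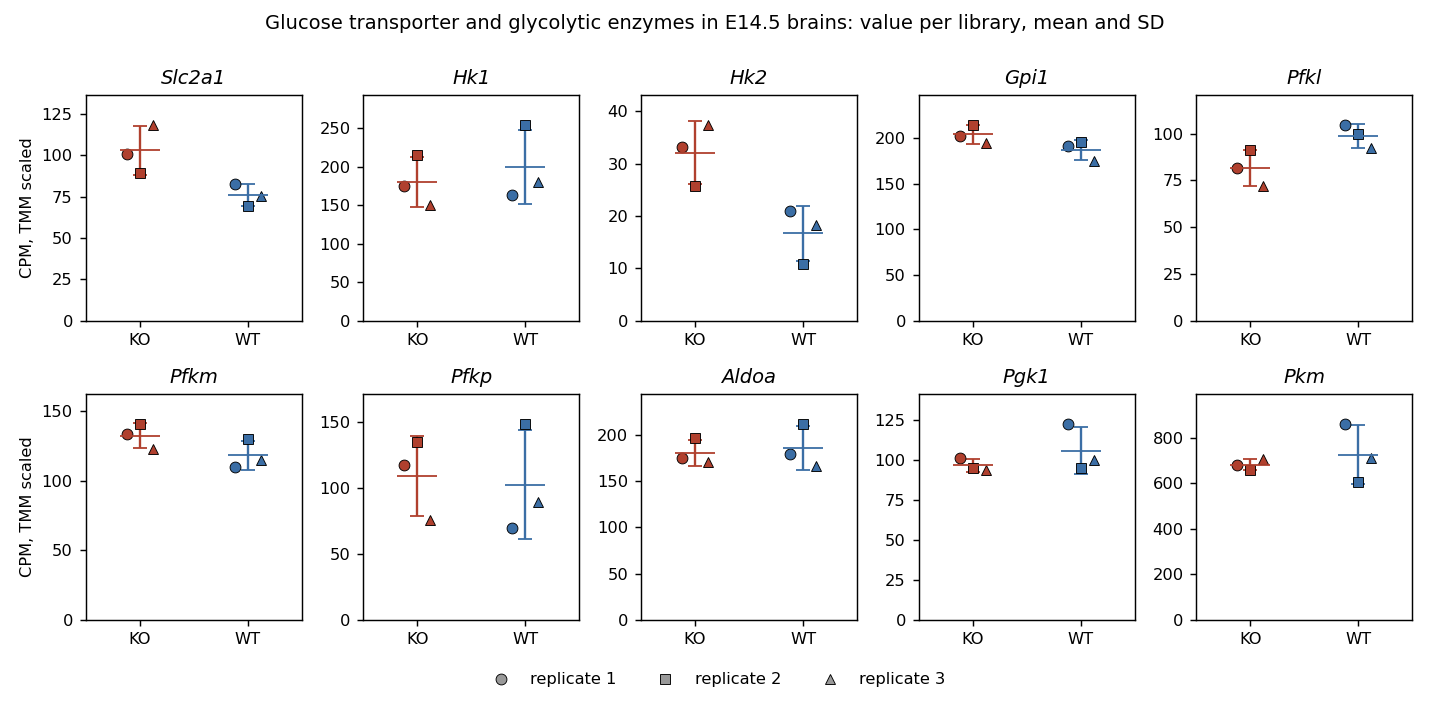
TMM-scaled CPM of each of the 10 genes in every library, KO left of WT, with the mean and SD of 3 libraries. Symbols mark the replicate number; only Slc2a1, Hk2 and Pfkl show no overlap between the groups, and the hexokinase Hk2 lies lowest, between 10.8 and 37.5 CPM.

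The promoters of Hk2, Slc2a1 and Pfkl are shown because these genes were the ones with no overlap between the groups. The windows run from 250 bases before to 50 after the RefSeq start (GRCm38.p6) and read 5′ to 3′ on the strand of the gene. Capitals mark every match, on either strand, to TGACGT (core of the site of E4F1 and of CREB/ATF factors), ACGTG (core of the hypoxia response element), TGATGNAA (ATF4 and CEBP composite site) and GGGCGG (GC box). The Hk2 window is chr6:82774405-82774704 (minus strand), that of Slc2a1 chr4:119108495-119108794 (plus strand), and that of Pfkl chr10:78009758-78010057 (minus strand).
Hk2: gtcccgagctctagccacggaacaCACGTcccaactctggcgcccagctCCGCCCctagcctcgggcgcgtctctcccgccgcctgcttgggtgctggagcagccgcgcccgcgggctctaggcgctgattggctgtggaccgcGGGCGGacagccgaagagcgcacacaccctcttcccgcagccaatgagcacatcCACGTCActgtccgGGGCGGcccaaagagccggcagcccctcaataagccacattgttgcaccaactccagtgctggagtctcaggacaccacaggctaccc
Slc2a1: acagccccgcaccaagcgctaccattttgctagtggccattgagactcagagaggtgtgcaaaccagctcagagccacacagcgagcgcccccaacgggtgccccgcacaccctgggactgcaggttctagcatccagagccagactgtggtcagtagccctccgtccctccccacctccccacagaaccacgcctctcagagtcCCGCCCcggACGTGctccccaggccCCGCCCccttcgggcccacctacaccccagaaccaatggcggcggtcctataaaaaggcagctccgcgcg
Pfkl: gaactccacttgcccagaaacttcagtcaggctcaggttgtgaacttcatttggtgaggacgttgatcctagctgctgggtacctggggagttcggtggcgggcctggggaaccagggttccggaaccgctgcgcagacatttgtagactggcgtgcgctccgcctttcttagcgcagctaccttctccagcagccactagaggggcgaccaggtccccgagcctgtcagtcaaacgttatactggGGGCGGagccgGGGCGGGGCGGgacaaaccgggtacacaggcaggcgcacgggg

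The Hk2 window held TGACGT on its reverse strand at bases 200 to 205, overlapping ACGTG at bases 199 to 203, and a further ACGTG at bases 25 to 29. Slc2a1 held ACGTG at bases 215 to 219 between a pair of GC boxes, and Pfkl held GC boxes alone, all close to the start. Among the 17 windows of the 10 genes, TGACGT was in 2 (of Hk2 and Pkm), ACGTG in 9, TGATGNAA in 0 and GGGCGG in 9. The shares over all 32851 RefSeq windows of this length were 7.51%, 19.6%, 3.97% and 35.7% in the same order. Some genes have several overlapping windows. A match describes the letters and shows no binding.

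Slc2a1 lies on chromosome 4 (119108745 to 119137330, plus strand, GRCm38.p6). It was at 101, 89.4 and 119 CPM in the KO brains, against 82.8, 69.4 and 75.2 CPM in the WT brains. KO 3 was highest and WT 2 lowest, and the gap between the lowest KO and the highest WT brain was narrow. The means were 103 ± 14.7 CPM in KO and 75.8 ± 6.75 CPM in WT (SD, n = 3 each). The log2 fold change was 0.44 ± 0.12 (SE), or 1.36-fold, with an edgeR adjusted p of 0.142 and a DESeq2 adjusted p of 0.0332. Over the 6 fits that left out 1 library the fold change lay between 0.32 and 0.53 and the edgeR adjusted p between 0.120 and 0.412.

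Endothelial markers, which mark the cells of the blood-brain barrier, were also higher in every KO brain as a sum. The summed TPM (a level scaled to transcript length and library size) of 12 such markers was 359, 341 and 449 in the KO brains, against 283, 319 and 262 in the WT brains. The fold changes of all 12 were positive, with a median of 0.41, and none was called by edgeR. Of the 12, 8 had an unadjusted p below 0.05, against 19.6% of all tested genes, and DESeq2 called 6, against 8.89%. Cldn5, a tight junction protein and the most abundant of them, was at 115, 112 and 155 TPM in KO and at 80.7, 105 and 74.8 TPM in WT. With the mean log2 CPM of these markers as a covariate, a fit added after the data were seen, Slc2a1 had a log2 fold change of 0.23 ± 0.23 (edgeR adjusted p = 0.932). This score was 4.73, 4.62 and 4.98 in KO and 4.34, 4.53 and 4.28 in WT, so it separates the genotypes, and the fit cannot tell the score from the genotype. The part of endothelial RNA in the Slc2a1 values was not tested. More cells of a type and more RNA per cell cannot be told apart in bulk brain tissue.

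Among 12 genes of the SLC2A family in the table, which include the myo-inositol transporter Slc2a13, Slc2a1 made up 60.0%, 55.4% and 65.6% of the summed TPM in KO, against 59.2%, 48.4% and 55.3% in WT. These shares overlapped (exact permutation test, two-sided, p = 0.20, n = 3 per group; the smallest p that 3 against 3 allows is 0.10). Slc2a3, the neuronal transporter, was at 30.3, 34.4 and 21.4 TPM in KO and at 21.2, 36.9 and 31.2 TPM in WT. Its log2 fold change of -0.03 ± 0.25 had no stable sign over the alternatives. Slc2a4, the insulin-responsive transporter of muscle and fat, was low but higher in every KO brain, at 9.02, 8.53 and 8.34 TPM against 6.42, 4.44 and 4.96 TPM in WT. Its log2 fold change was 0.73 ± 0.16 (edgeR adjusted p = 0.104; DESeq2 adjusted p = 0.00245). Skeletal muscle markers also differed between brains, with a summed TPM of 12, 40.8 and 75.0 in KO and 7.80, 14.6 and 9.20 in WT. With the muscle score (the mean log2 CPM of these markers) as a covariate, Slc2a4 had a log2 fold change of 0.84 ± 0.22 (edgeR adjusted p = 0.442). That fit was added after the data were seen. The score was -0.75, 1.32 and 2.17 in KO and -0.88, 0.1 and -0.8 in WT, so the groups overlapped. The part of muscle RNA in the Slc2a4 values was not tested otherwise.

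Hexokinase traps glucose in the cell. Hk1 lies on chromosome 10 (62268855 to 62379920, minus strand) and encodes the isozyme that sits on mitochondria in most tissues. It was at 175, 215 and 151 CPM in the KO brains, against 163.9, 255 and 181 CPM in the WT brains. The groups overlapped throughout, and WT 2 was highest. Its log2 fold change was -0.15 ± 0.20 (SE, edgeR adjusted p = 0.711), which turned positive without WT 2 (0.07) and with a midbrain score (from En1, En2 and Pax5) or a score of erythroid markers as a covariate.

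Hk2 lies on chromosome 6 (82725025 to 82774454, minus strand) and encodes the inducible hexokinase of muscle, heart and many growing cells. It was at 33.2, 25.7 and 37.5 CPM in the KO brains, against 20.9, 10.8 and 18.3 CPM in the WT brains. KO 3 was again highest and WT 2 lowest, as for Slc2a1. The means were 32.1 ± 5.97 CPM in KO and 16.7 ± 5.21 CPM in WT (SD, n = 3 each). The log2 fold change of 0.94 ± 0.26 (SE), or 1.92-fold, was the largest of the 10. Its adjusted p was 0.144 in edgeR and 0.0129 in DESeq2. Without 1 library the fold change lay between 0.71 (without WT 2) and 1.14 (without WT 1), with edgeR adjusted p-values between 0.144 and 0.426. Hk3, the hexokinase of myeloid cells, was at 1.40, 1.83 and 2.18 TPM in KO against 1.03, 1.18 and 0.54 TPM in WT (0.998 ± 0.34, edgeR adjusted p = 0.194). Markers of microglia and macrophages were higher in the same brains, as given below.

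Hk1 supplied most hexokinase transcripts in every brain. Hk2 made up 12.3%, 8.16% and 15.6% of the summed TPM of both in KO, against 8.66%, 3.07% and 6.99% in WT. The mean share was 12.03 ± 3.72% in KO and 6.24 ± 2.87% in WT (SD, n = 3 each), a difference of 5.78 percentage points. KO 2 fell below WT 1, so the groups overlapped (exact permutation test, two-sided, p = 0.20). The sum of both genes was 129 ± 18.6 TPM in KO and 136 ± 29.0 TPM in WT, and the sums overlapped (exact permutation test, two-sided, p = 0.70, n = 3 each).

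**Figure D2:**
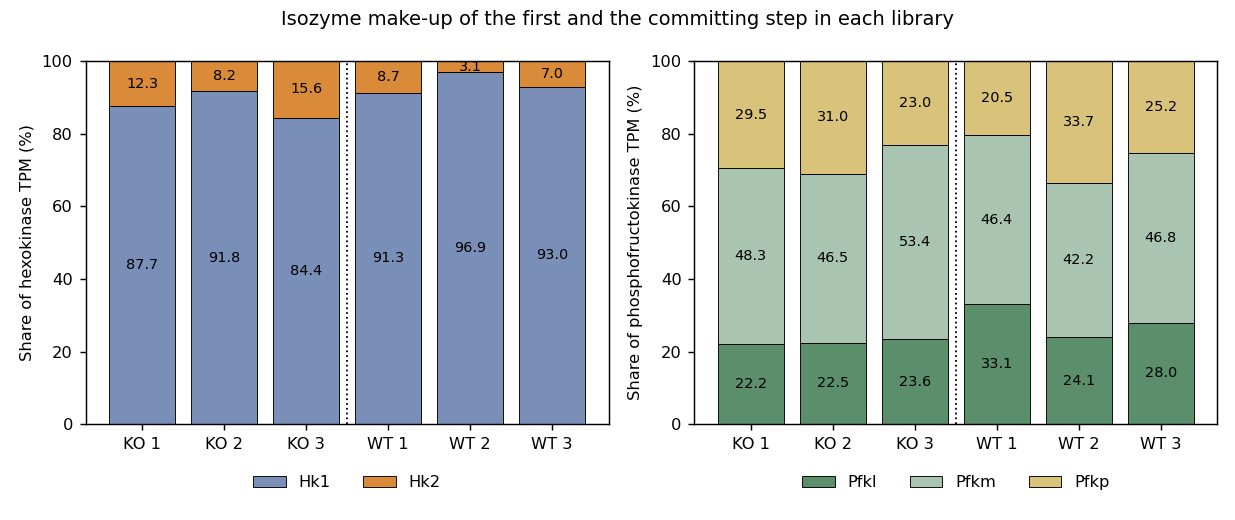
Share of each gene in the summed TPM of hexokinase (Hk1, Hk2) and of phosphofructokinase (Pfkl, Pfkm, Pfkp) in every library, KO left of WT. Hk2 spans 8.16% to 15.6% in KO and 3.07% to 8.66% in WT; Pfkl is between 22.2% and 23.6% in KO and between 24.1% and 33.1% in WT.

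Gpi1, glucose-6-phosphate isomerase, lies on chromosome 7 (34201327 to 34230336, minus strand). It was at 202, 215 and 195 CPM in KO, against 192, 196 and 175 CPM in WT, and was among the steadiest of the 10. KO 3 lay just below WT 2, so the groups overlapped. Its log2 fold change was 0.12 ± 0.07 (SE, edgeR adjusted p = 0.384).

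Phosphofructokinase is a tetramer built from liver-type (Pfkl), muscle-type (Pfkm) and platelet-type (Pfkp) subunits. Pfkl, on chromosome 10 (77986947 to 78009807, minus strand), was at 81.8, 91.2 and 72.2 CPM in the KO brains, against 104.9, 99.8 and 92.2 CPM in the WT brains. All KO values were lower, but KO 2 came within about 1 CPM of WT 3. The means were 81.7 ± 9.52 CPM in KO and 98.98 ± 6.39 CPM in WT (SD, n = 3 each). The log2 fold change was -0.28 ± 0.10 (SE), or 0.826 of the WT level, with an edgeR adjusted p of 0.218 and a DESeq2 adjusted p of 0.149. It was closer to zero with a midbrain score as a covariate (-0.08 ± 0.18) and with the endothelial score (-0.08 ± 0.17). The midbrain score was -3.05, -1.31 and -1.97 in KO and 4.12, 3.18 and -0.19 in WT, so both scores separate the genotypes and neither fit can tell its score from the genotype.

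Pfkm, on chromosome 15 (98092589 to 98132447, plus strand), was at 134, 141 and 123 CPM in KO, against 109.9, 129.9 and 115 CPM in WT. This gave a log2 fold change of 0.16 ± 0.09 (SE, edgeR adjusted p = 0.353). Pfkp, on chromosome 13 (6579874 to 6649060, minus strand), varied more within both groups than any other of the 10, with a coefficient of variation of 28.8% in KO and 40.6% in WT. It was at 117, 135 and 75.6 CPM in KO, against 69.6, 149 and 89.0 CPM in WT. WT 2 was highest and WT 1 lowest, so both extremes lay within the WT group. The log2 fold change of 0.09 ± 0.33 (SE, edgeR adjusted p = 0.895) changed sign without KO 2 (-0.09) and without WT 1 (-0.12). Pfkp shares 748 exon bases with Pitrm1 on the opposite strand in GENCODE, and the strand setting of the counting is not given in the sources used here.

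Pfkl made up 22.2%, 22.5% and 23.6% of phosphofructokinase TPM in KO, against 33.1%, 24.1% and 28.02% in WT. Every KO share was lower (exact permutation test, two-sided, p = 0.10, the smallest this design allows). From expected counts in place of TPM the groups overlapped, with a difference of -6.09 percentage points (exact permutation test, p = 0.20). Without WT 1 the difference was -3.29 percentage points, against -5.65 with all brains. The Pfkm share differed by 4.29 percentage points, but by 2.28 without KO 3 and 2.82 without WT 2. Pfkm made up 49.4 ± 3.60% in KO and 45.1 ± 2.54% in WT, and Pfkp 27.8 ± 4.26% in KO and 26.5 ± 6.70% in WT (SD, n = 3 each; exact permutation tests, two-sided, p = 0.20 and 0.90). The 3 subunits together reached 252 ± 37.7 TPM in KO and 249.97 ± 37.3 TPM in WT, and the sums overlapped (exact permutation test, two-sided, p = 1, n = 3 each).

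Aldoa, aldolase A, lies on chromosome 7 (126795234 to 126800994, minus strand). It was at 175, 197 and 171 CPM in KO, against 179, 212 and 166 CPM in WT, and its log2 fold change was -0.04 ± 0.11 (SE, edgeR adjusted p = 0.869). Its retrogene copies Aldoart1 and Aldoart2 held at most 4 counts in any library. Pgk1, on chromosome X (106187100 to 106203699, plus strand), makes the first ATP of the pathway. It was at 101, 94.7 and 93.8 CPM in KO, against 123, 95.0 and 99.9 CPM in WT, and WT 1 alone stood above the others. This gave, KO minus WT, a log2 fold change of -0.13 ± 0.11 (SE, edgeR adjusted p = 0.519).

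Pkm, on chromosome 9 (59656576 to 59679372, plus strand), encodes both the M1 form of adult neurons and muscle and the M2 form of growing cells, by a choice between mutually exclusive exons. It was at 682, 658 and 705 CPM in KO, against 861, 603 and 709.5 CPM in WT. The WT brains held both the highest and the lowest value. The log2 fold change was -0.09 ± 0.13 (SE, edgeR adjusted p = 0.739), and 0.05 without WT 1. The tables list Pkm transcripts under a single length in all 6 libraries, so the choice between M1 and M2 cannot be read from the gene rows.

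**Figure D3:**
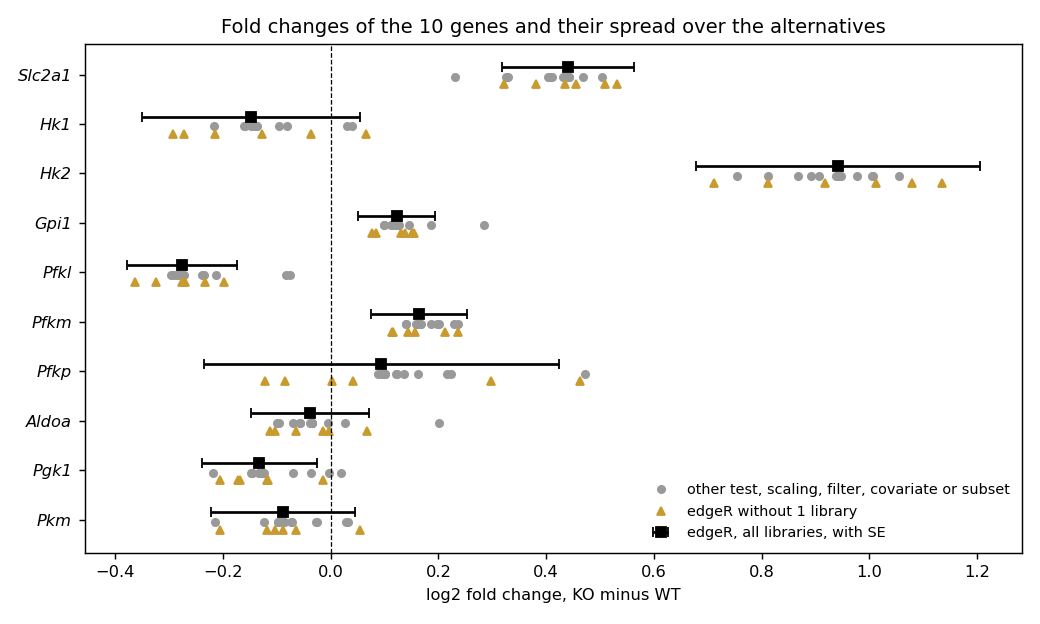
Log2 fold change, KO minus WT, of the 10 genes. Black squares with bars are the edgeR estimate and its SE with all 6 libraries, triangles the fits without 1 library, and grey circles the other alternatives. Over the 20 alternatives Slc2a1 (0.23 to 0.53), Hk2 (0.71 to 1.14), Gpi1 (0.08 to 0.28) and Pfkm (0.11 to 0.24) stay positive. Pfkl (-0.36 to -0.08) stays negative, while Hk1, Pfkp, Aldoa, Pgk1 and Pkm cross zero.

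Per transcript length, the order of the 10 genes was nearly the same in both groups. Pkm was highest at 763 ± 20.1 TPM in KO and 825 ± 147 TPM in WT, followed by Aldoa at 348 ± 29.4 TPM in KO and 363 ± 47.3 TPM in WT (SD, n = 3 each). Gpi1 came next at 189.7 ± 11.1 TPM in KO and 177 ± 10.96 TPM in WT. Pgk1 followed at 149 ± 8.05 TPM in KO and 166 ± 23.2 TPM in WT, and overlapped with Gpi1 in WT only. Hk1 (114 ± 21.2 TPM in KO, 128 ± 31.4 TPM in WT) and Pfkm (124 ± 10.1 TPM in KO, 112 ± 10.1 TPM in WT) swapped ranks between the groups and did not differ beyond their spread. Slc2a1 was at 108 ± 14.2 TPM in KO and 81.2 ± 7.16 TPM in WT, and overlapped with Hk1 and Pfkm in KO but lay below both in every WT brain. Pfkp (71.1 ± 20.5 TPM in KO, 67.7 ± 27.5 TPM in WT) and Pfkl (57.2 ± 7.20 TPM in KO, 70.0 ± 4.70 TPM in WT) overlapped in both groups. Hk2 was lowest at 15.01 ± 2.67 TPM in KO and 7.94 ± 2.46 TPM in WT. The sum over the 10 genes was 1957, 1994 and 1865 TPM in KO, against 2132, 1975 and 1886 TPM in WT, and these sums overlapped (exact permutation test, two-sided, p = 0.50, n = 3 each).

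The 10 genes did not vary as a block across the 6 brains. Slc2a1 and Hk2 had the same order of brains, from KO 3 down to WT 2, and were both most like Pgm1, a phosphoglucomutase family gene, among 43 tested genes of glycolysis and its branches (Pearson r = 0.96 for each, Spearman rho = 0.94, n = 6 brains). Pfkl was most like the enolase Eno1 (r = 0.95, rho = 0.94), Pfkm most like the neuronal enolase Eno2 (r = 0.97, rho = 0.94), and Pfkp most like Slc2a3 (r = 0.92, rho = 0.94). Hk1 was most like Pfkfb4 (r = 0.97, rho = 0.83) and Gpi1 most like Slc2a8 (r = 0.88, rho = 0.94). Aldoa was most like Slc2a6 (r = 0.93, rho = 0.83) and Pgk1 most like Pkm (r = 0.88, rho = 0.49), but without the 2 brains farthest from the median of each gene r was 0.42 and 0.38. Likeness between Pkm and Gapdh (r = 0.94) rested on a few brains, since rho was 0.60 and r was -0.15 without the 2 brains farthest from the Pkm median. Each partner is the closest of many, and the brains differ in genotype and in tissue make-up, so these values describe the 6 libraries and carry no test.

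RSEM averages a gene's length over its transcripts, weighted by their estimated abundance, so that a shift in length reflects a shift between long and short transcripts. Pfkl, with 2 RefSeq transcripts, had a length of 3764, 3763 and 3761 bases in KO, against 3772, 3798 and 3775 bases in WT. It was shorter in every KO brain. Over 6328 tested genes whose length varied, the groups did not overlap in 19.7%, and 9.89% were shorter in every KO brain. For Aldoa the KO lengths were 1510.7, 1510.6 and 1511.1 bases against 1510.5, 1509.6 and 1510.2 bases in WT, a difference under 2 bases. Hk1 varied by less than 1 base and Pfkm by a few bases, with overlap. The other 6 genes kept 1 length in all brains. Slc2a1, Hk2, Gpi1 and Pgk1 have 1 listed transcript each, so their lengths could not vary. Pfkp and Pkm have 2 each, whose mix cannot be read from a constant length.

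The other steps of glycolysis gave no call by edgeR. For this list and those that follow, the shares over all genes were 1% by edgeR, 19.6% at an unadjusted p below 0.05 and 8.89% by DESeq2. Of 13 tested enzymes outside the 10, 0 were called, 1 had an unadjusted p below 0.05 (Hk3) and DESeq2 called 0; their median log2 fold change was 0.08, against a median of zero over all tested genes. Gapdh, the most abundant of them, was at 1554, 1576 and 1565 TPM in KO, against 1778, 1481 and 1551 TPM in WT (log2 fold change -0.01 ± 0.09, edgeR adjusted p = 0.947). Eno1, the common enolase, was at 406, 422 and 387 TPM in KO, against 455, 440.3 and 443 TPM in WT, lower in every KO brain (-0.12 ± 0.06, adjusted p = 0.323). Of the 13, the CPM of every KO brain were above every WT brain in 3 and below in 3. Over all tested genes these shares were 14.6% and 13%. Tpi1, triose phosphate isomerase, had 0.08 ± 0.08 (adjusted p = 0.608). Reads of Gapdh, Pgk1, Pkm, Eno1, Aldoa and Tpi1 can be shared with processed pseudogenes, so their levels are less certain than those of the other genes.

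Among 11 tested genes that control phosphofructokinase or branch off the pathway, 0 were called by edgeR. At an unadjusted p below 0.05 were 2 higher and 2 lower, against 10.3% and 9.31% of all tested genes. DESeq2 called 1 in each direction, against 4.82% higher and 4.06% lower over its genes. Pfkfb3, a kinase that makes fructose 2,6-bisphosphate, the activator of phosphofructokinase, was at 32.1, 33.2 and 27.1 TPM in KO, against 41.6, 51.9 and 50.5 TPM in WT. Every KO value was lower, and the log2 fold change was -0.62 ± 0.11 (edgeR adjusted p = 0.0684; DESeq2 adjusted p = 0.000267). Its sister enzyme Pfkfb2 had -0.17 ± 0.07 (adjusted p = 0.238). Pgm1 was at 34.5, 29.8 and 35.4 TPM in KO, against 26.7, 23.8 and 27.4 TPM in WT (0.38 ± 0.10, edgeR adjusted p = 0.141; DESeq2 adjusted p = 0.0447). Trap1, a mitochondrial chaperone, had 0.22 ± 0.07 (adjusted p = 0.166), and Bpgm, the bisphosphoglycerate mutase of red cells, was at 86.1 ± 10.97 TPM in KO and 86.6 ± 11.5 TPM in WT.

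Of 10 tested genes of glucose transport beside Slc2a1, 0 were called by edgeR, with Slc2a4 higher and Slc2a13, a myo-inositol transporter, lower (-0.32 ± 0.12, adjusted p = 0.227) at an unadjusted p below 0.05; DESeq2 called Slc2a4. Slc2a8 was at 14.4 ± 0.966 TPM in KO and 12.6 ± 1.24 TPM in WT, and Txnip, an inhibitor of glucose uptake, at 55.6 ± 12.1 TPM in KO and 50.1 ± 9.08 TPM in WT. In the pentose phosphate pathway, which leaves glycolysis after hexokinase, 0 of 8 were called by edgeR or DESeq2. Transketolase (Tkt) alone had an unadjusted p below 0.05 and was at 258, 239 and 249.7 TPM in KO, against 213, 213 and 227 TPM in WT (0.22 ± 0.06, adjusted p = 0.158). Taldo1 was at 281 ± 9.54 TPM in KO and 267 ± 19.8 TPM in WT, and Pgls at 123 ± 8.62 TPM in KO and 131 ± 6.83 TPM in WT.

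Genes that hypoxia induces outside glycolysis were listed because HIF also induces Slc2a1, Hk2 and most enzymes of the pathway. Of 16 tested, edgeR called Vegfa alone and DESeq2 called Vegfa and Ddit4, and 8 fold changes were positive and 8 negative, with a median of 0.01. Vegfa, the vascular growth factor, was at 150.0, 127 and 105 TPM in KO, against 70.1, 71.4 and 64.9 TPM in WT (0.92 ± 0.12, edgeR adjusted p = 0.0350). Leaving out 1 library kept its call only without KO 3 (adjusted p = 0.0211) and otherwise gave adjusted p-values up to 0.155. Vegfa was called in 7 of 20 alternatives, and was not called by limma on TPM (adjusted p = 0.0536 and 0.0614 for the pseudocounts tried), with the replicate number as a block (0.0511), or with the erythroid (0.105), muscle (0.0536), midbrain (0.981) or endothelial (0.357) score. Ddit4, an inhibitor of mTORC1 that stress also induces, was at 165, 127 and 143 TPM in KO, against 95.3, 91.6 and 96.9 TPM in WT (0.64 ± 0.10, edgeR adjusted p = 0.0529; DESeq2 adjusted p = 5.46e-05). Bnip3l, a mitophagy receptor, was at 88.8 ± 7.33 TPM in KO and 105 ± 9.75 TPM in WT. Of the 16, the CPM of every KO brain were above every WT brain in 2 and below in 3, against 14.6% and 13% of all tested genes.

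**Figure D4:**
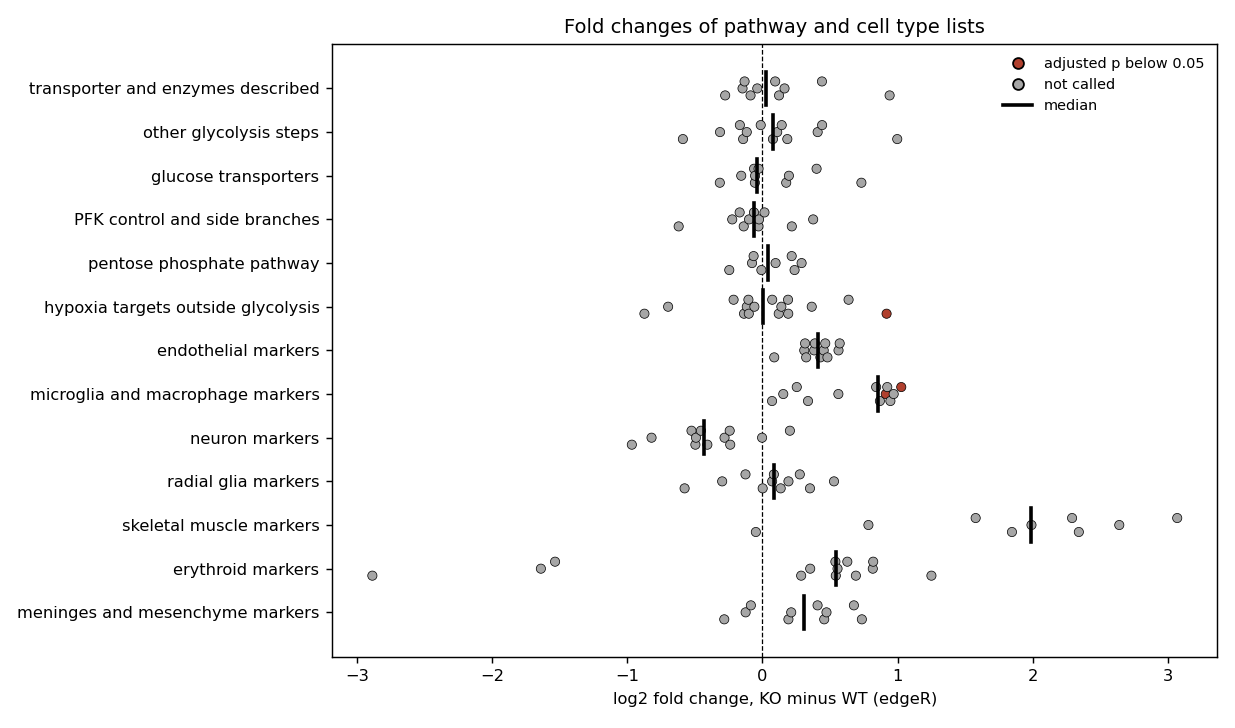
Log2 fold change, KO minus WT, of each tested gene in the pathway lists and the cell type marker lists, with the median of each list as a black bar. Midbrain markers (median -2.91) are not drawn. The 10 genes described have a median of 0.03, the other glycolysis steps 0.08 and the hypoxia list 0.01, while endothelial markers have a median of 0.41 and neuron markers of -0.43; filled red points were called by edgeR.

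The brains also differed in tissue make-up as read from markers. Beside the marker counts here, 19.6% of all tested genes had an unadjusted p below 0.05. DESeq2 called 8.89% of its genes and edgeR 1%. Neuron markers summed to 5302, 6168 and 4501 TPM in KO, against 6866, 8096 and 6983 TPM in WT; 11 of 12 had negative fold changes, 0 were called by edgeR, 6 had an unadjusted p below 0.05 and DESeq2 called 4 lower. Tubb3, the neuronal tubulin, was at 2097, 2493 and 1802 TPM in KO and at 2903, 3121 and 2873 TPM in WT. Microglia and macrophage markers summed to 188, 205 and 252 TPM in KO, against 105, 163.6 and 109 TPM in WT, with 12 of 12 fold changes positive, 8 at an unadjusted p below 0.05 and 7 called by DESeq2. By edgeR 2 of 12 rose, Cx3cr1 (1.03 ± 0.15, edgeR adjusted p = 0.0395) and Fcrls (0.91 ± 0.13, adjusted p = 0.0369). Both calls were lost in each fit that left out 1 library (adjusted p between 0.0694 and 0.163) and with the replicate number as a block (0.0502 and 0.0706). Radial glia markers summed to between 2461 and 2642 TPM in KO and between 2648 and 3170 TPM in WT, but 8 of 11 had a positive fold change (median 0.08) and 0 were called by edgeR. Fabp7, the most abundant of them, was at 891, 977 and 843 TPM in KO and at 1328, 1510.0 and 1249 TPM in WT (-0.58 ± 0.09, adjusted p = 0.0555), and alone had an unadjusted p below 0.05. Skeletal muscle markers had 8 of 9 positive fold changes, with 0 called, 6 at an unadjusted p below 0.05 and 4 called by DESeq2; Ckm, Myod1 and Tnni2 were too low to test. Midbrain markers summed to 6.02, 24.2 and 5.78 TPM in KO, against 128, 64.4 and 15.6 TPM in WT. All 8 fold changes were negative (median -2.91), 0 were called by edgeR and DESeq2 called 3 lower. Mesenchymal markers summed to 264, 356 and 2525 TPM in KO, against 333, 1343 and 584 TPM in WT, KO 3 being highest. Erythroid markers summed to 4481, 5291 and 6375 TPM in KO, against 5771, 4015 and 2016 TPM in WT. Of their 13 fold changes 10 were positive, and DESeq2 called 2 higher. The negative ones were those of the embryonic globins Hbb-y, Hbb-bh1 and Hba-x, all highest in WT 1. Hbb-y was at 2346 TPM in WT 1, against 10.3 and 65.6 TPM in WT 2 and WT 3 and 58.6, 92.3 and 173 TPM in KO. The part of these differences in the values of the 10 genes was not tested beyond the covariate fits given above and below.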

How the data were processed

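RNA-seq libraries of 3 KO and 3 WT brains were analysed from 1 table per library. RSEM (1.2.28), STAR (2.5.3a), Trimmomatic and FastQC are listed in the submitters' processing notes, as are GRCm38 and mm10 for the genome; libraries were made with a stranded mRNA kit, per the labels' protocols. The tables hold expected counts, TPM, FPKM and weighted lengths, deposited by the authors. Expected counts are RSEM's estimates of read pairs per gene; between 98.9% and 99.0% lay within 0.005 of a whole number and they were rounded. TPM and FPKM, per the file headers, are scaled to length by the authors, and FPKM served for 1 alternative.

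edgeR (version 4.0.16) used filterByExpr, TMM and the robust quasi-likelihood F test, two-sided, with Benjamini-Hochberg adjustment over 15848 genes. Every adjusted p is edgeR's unless DESeq2 (version 1.42.0) is named, and limma (version 3.58.1) was an alternative. SE is the absolute fold change over the root of F. The test was also run on simulated counts of independent libraries. These lacked differences in tissue make-up, so that run cannot vouch for the test in these brains. Nothing says that libraries came from separate litters. The p-values treat these 6 brains as independent within their groups, which shared litters would undo. Pairs of libraries within a group differed beyond sampling noise (chi-square per degree of freedom 45.2 to 175). The members and lists were chosen with earlier results of these data known. Named genes are the 10, E4f1, in each pathway list the called genes, up to 6 with an unadjusted p below 0.05 and the 3 most abundant, and in marker lists the called genes and the most abundant one, shown for some lists only. Whether same-numbered brains pair is not known. The correlations of their deviations were weak, at 0.12, 0.17 and 0.02, against -0.2351 to 0.1201 for brains of unlike number. Each was the highest for its KO brain, by a small margin for KO 1 and KO 3. Promoters and coordinates are from RefSeq (GRCm38.p6), with all 10 genes matched; exon overlaps are from GENCODE.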

Additional observations from a re-analysis of the deposited data

How the results depend on the processing

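Of the 10 genes, 0 were called in any edgeR or limma fit, and DESeq2 called 2, Slc2a1 and Hk2. Over all genes, edgeR called 159, against 1437 by DESeq2, 60 with an erythroid score as a covariate, 21 with a muscle score, and between 36 and 82 without 1 library. It called 0 with a midbrain score, with an endothelial score and in a subset of KO 1, KO 2, WT 1 and WT 2, with 753, 986 and 1546 genes at an unadjusted p below 0.05. The endothelial and muscle scores were chosen after seeing the data. With the replicate number as a block, 66 genes and 0 of the 10 were called. Hk2 had an edgeR adjusted p of 0.0706 and Slc2a1 of 0.106. Whether the numbers pair the brains is not known. The block left the Hk2 share at 5.78 percentage points.

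Several fold changes changed sign, and the cause was not tested. Scaling by library totals, which moved the median of all genes to 0.06, gave 0.0257 for Aldoa, 0.0502 for Gapdh and 0.0413 for Slc2a3. The midbrain score gave 0.0295 for Hk1, 0.20 for Aldoa, 0.0183 for Pgk1, 0.0324 for Pkm and 0.11 for Gapdh. The erythroid score gave 0.0387 for Hk1, -0.0026 for Tpi1 and 0.30 for Slc2a3, the endothelial score 0.0284 for Pkm, 0.044 for Gapdh and 0.16 for Slc2a3, and the muscle score 0.0001 for Gapdh. Slc2a3 also had 0.014 by limma-voom and 0.18 in that subset. Without 1 library, log2 fold changes lay between -0.12 and 0.46 for Pfkp, -0.292 and 0.0652 for Hk1, -0.113 and 0.0674 for Aldoa, -0.205 and 0.0542 for Pkm, -0.0685 and 0.0669 for Gapdh, and -0.22 and 0.15 for Slc2a3. Over all 20 alternatives, fold changes also crossed zero for genes given by level, from -0.31 to 0.33 for Txnip, -0.09 to 0.44 for Bpgm, -0.13 to 0.08 for Pgls and -0.07 (endothelial score) to 0.83 for Cldn5. The Pfkp share differed by 1.36 percentage points, and by -1.64 to 4.98 without 1 library. The Hk2, Pfkl and Pfkm shares kept their signs, at 4.01 to 7.72, -7.80 to -3.29 and 2.28 to 5.75 points without 1 library. The midbrain and endothelial scores separate KO from WT.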
